A study of Arabidopsis thaliana with 4 samples.

Results

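The genes described here are 46 nuclear genes of *Arabidopsis thaliana* whose read counts were lower in seedlings of the *mettl4-1* mutant than in seedlings of the wild type Col-0. They were chosen from the counts themselves. Counts were divided by the nuclear count of each library and multiplied by 1000000, which gives the level of a gene in CPM, its count per 1000000 nuclear counts. A gene was taken when it had at least 20 counts in both Col-0 libraries and when the lower of its Col-0 levels was at least 1.5 times the higher of its *mettl4-1* levels. Of 32548 nuclear genes listed, 20544 had the counts, and 70 of these, or 0.341%, also had the gap. The 24 genes of this set that were left out by name were *METTL4*, *RING1A*, *MRD1*, genes of the LHCB1 antenna proteins and 17 seed genes. These 17 came from a fixed list of cruciferins, SESA seed storage albumins, oleosins, caleosins and LEA genes. Storage-type genes outside that list, such as the cupin *PAP85*, were kept. The 46 genes not left out are the subject here. Because the gap between the genotypes chose these genes, their levels are given as a description and without a test.

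RNA was taken from whole seedlings grown for 14 days on MS medium under long days, with 16 h of light, at 22 °C by the sample records. The paper gives that temperature for the plants of its flowering assay and a slightly lower one for the seedlings used for RNA. Col-0 is the common laboratory accession and served as the control. The line *mettl4-1* carries a T-DNA insertion in the first exon of *METTL4* (AT1G19340), which encodes an RNA adenosine methyltransferase. By its labels the mutant is 1 insertion allele, and the libraries include no line in which the gene was put back. The deposited table of *mettl4-1* replicate 2, however, is named for another allele and replicate number and repeats the column name of replicate 1, so which line it came from rests on the sample label, and the values of the 2 tables differ. Each genotype had 2 libraries, and the sources used here do not say whether these came from separately grown plants, so the spread between them may be technical in part. In the labels the dark period reads 8 and 9 h for the Col-0 libraries and 10 and 11 h for the *mettl4-1* libraries, while the growth protocol gives 8 h for all, so a difference in dark period, if real, cannot be told apart from genotype.

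Many of these genes belong to the programme of seed maturation. In the ripening embryo, transcription factors such as ABI3 switch on genes for reserve proteins, storage oil, vacuolar water channels and protection against drying. B3 factors of this kind bind the RY motif, and bZIP factors acting with abscisic acid bind ACGT-type elements, often side by side in seed promoters. After germination these genes are normally kept silent, and the reserves are broken down by proteases and carboxypeptidases.

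The libraries were deep for genes of this kind. Nuclear counts lay between 50338704 and 65533101 per library, so that 3 counts, used here as the floor of detection, equal 0.0458 to 0.0596 CPM. This floor and the intervals below cover counting error only. *METTL4* itself had 355 and 413 counts in Col-0 against 35 and 46 in *mettl4-1*, which matches the labels. Genes of the chloroplast and mitochondrion took 0.693 and 0.713% of all counts in Col-0 but 2.68 and 1.03% in *mettl4-1*, so they were kept out of the CPM. The seedling origin was checked with marker genes. The summed level of 12 root markers was 157 and 156 CPM in Col-0 and 153 and 158 CPM in *mettl4-1*, and that of 7 leaf mesophyll markers was 41880 and 42050 against 37900 and 40240 CPM, where 6 of the 7 were lower at an adjusted p under 0.05 by edgeR. The 7 genes matched to flower symbols summed to 206 and 207 against 192 and 205 CPM. Among them, *SEP1* was matched to AT4G34190, which is not the floral gene *SEPALLATA1*, so this sum is not read as a flower level. The 7 pollen markers summed to 39.5 and 38.9 against 39.2 and 39.2 CPM, with the pollen genes *VGD1* and *VGDH1* at 0 everywhere and *PRK2A* at 0 in *mettl4-1*. Only 2 of the 7 had enough counts to be tested, so this sum is not read as a pollen level either. Whole seedlings are a mixture of cells, and fewer cells of a type and less RNA per cell cannot be told apart in these data.

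The 46 genes were unequal in how much was left in the mutant. In *mettl4-1*, 5 genes had no count at all, 7 held above 0 to 10% of their Col-0 level, 10 held above 10 to 30%, 12 held above 30 to 50%, and 12 held more than 50%, up to 62.0%. The median was 36.5%. Most were weakly expressed already in Col-0, with a median of 108.5 counts summed over the 2 Col-0 libraries, against 1929 for all nuclear genes with 20 counts in both. The whole set summed to 145 and 135 CPM in Col-0 and to 58.5 and 65.3 CPM in *mettl4-1*, and AT4G22505 alone supplied 64.9 and 59.8 of the Col-0 sums. The genes were sorted by annotated role into 6 groups after their values had been seen, and the groups are described in turn.

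**Figure D1:**
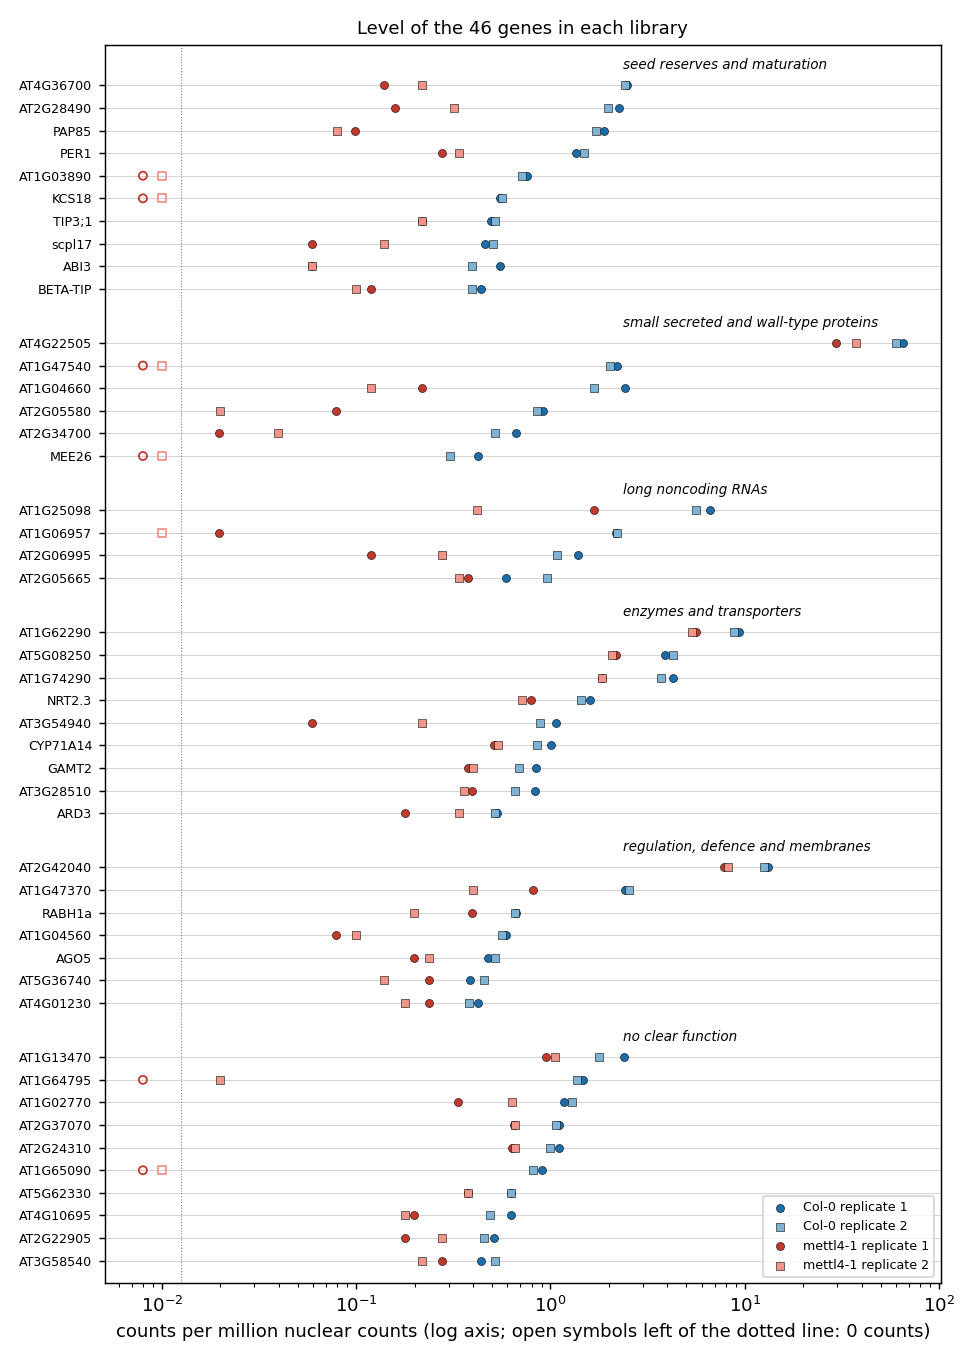
Level of each of the 46 genes in each of the 4 libraries, in CPM on a log axis. Blue symbols are Col-0 and red symbols *mettl4-1*, circles and squares are replicates 1 and 2, and open symbols left of the dotted line mark 0 counts; all red symbols lie left of the blue ones because the genes were chosen so, and 5 genes have both red symbols at 0.

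The 10 genes with roles in seed reserves and maturation were among those most reduced, with a median of 11.9% of the Col-0 level left and a range from 0 to 42.9%. Together they summed to 11.2 and 10.7 CPM in Col-0 and to 1.13 and 1.47 CPM in *mettl4-1*. They include 4 cupins, relatives of the globulin storage proteins, and a master regulator of seed maturation. Before their values, the promoters of 5 genes are shown, 3 of them cupins, 1 a seed lipid enzyme and 1 a protease described further below, because they hold the motif most common in this group. Each is the 250 bases before the annotated start in the RefSeq TAIR10.1 genome, with capitals on matches to CATGCA (the RY motif) or ACGTG (the core of abscisic acid response elements) on either strand.

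AT4G36700 promoter, chr4:17300368-17300617, minus strand: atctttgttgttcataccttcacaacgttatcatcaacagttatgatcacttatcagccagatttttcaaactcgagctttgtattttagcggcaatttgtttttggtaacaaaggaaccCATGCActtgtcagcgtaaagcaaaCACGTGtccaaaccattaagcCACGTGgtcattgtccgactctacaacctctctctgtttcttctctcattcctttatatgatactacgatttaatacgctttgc

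AT2G28490 promoter, chr2:12181013-12181262, minus strand: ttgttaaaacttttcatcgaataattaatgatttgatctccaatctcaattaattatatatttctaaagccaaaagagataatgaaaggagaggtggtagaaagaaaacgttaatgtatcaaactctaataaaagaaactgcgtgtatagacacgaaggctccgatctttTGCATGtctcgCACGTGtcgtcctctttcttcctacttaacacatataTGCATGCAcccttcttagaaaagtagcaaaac

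PAP85 promoter, chr3:8013942-8014191, minus strand: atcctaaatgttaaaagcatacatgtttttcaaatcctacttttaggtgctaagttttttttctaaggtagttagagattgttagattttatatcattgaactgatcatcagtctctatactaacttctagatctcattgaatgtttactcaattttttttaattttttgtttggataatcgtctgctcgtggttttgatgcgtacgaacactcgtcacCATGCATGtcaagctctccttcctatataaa

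KCS18 promoter, chr4:16493955-16494204, plus strand: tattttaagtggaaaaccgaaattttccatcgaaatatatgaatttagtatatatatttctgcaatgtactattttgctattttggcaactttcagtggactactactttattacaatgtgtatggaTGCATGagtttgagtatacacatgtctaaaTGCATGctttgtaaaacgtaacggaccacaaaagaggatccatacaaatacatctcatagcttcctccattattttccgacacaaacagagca

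AT3G54940 promoter, chr3:20354101-20354350, plus strand: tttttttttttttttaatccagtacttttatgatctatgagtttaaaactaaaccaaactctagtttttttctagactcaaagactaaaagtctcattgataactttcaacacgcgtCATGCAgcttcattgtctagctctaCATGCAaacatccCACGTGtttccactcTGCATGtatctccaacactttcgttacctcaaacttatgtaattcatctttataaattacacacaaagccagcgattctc

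Among the cupins, AT4G36700 had 2.47 and 2.43 CPM in Col-0 and 0.139 and 0.219 CPM in *mettl4-1*, where 7.30% of the level was left. AT2G28490 had 2.25 and 1.98 CPM against 0.158 and 0.318 CPM, and 11.3% was left. *PAP85* (AT3G22640), a vicilin-like storage globulin, had 1.88 and 1.71 CPM against 0.0990 and 0.0795 CPM, and 4.97% was left. These 3 genes stood close together in Col-0, and in the mutant each was many fold below both wild-type libraries. The last cupin, AT1G03890, had 41 and 47 counts in Col-0 and none in either *mettl4-1* library, which makes it at least 12.3-fold lower with 3 counts per library as the floor.

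The regulator *ABI3* (AT3G24650), a B3-domain transcription factor that activates seed genes in the maturing embryo, had 30 and 26 counts in Col-0 against 3 and 3 in *mettl4-1*, or 12.5% of the Col-0 level. Its level per kilobase of exon in Col-0 was 0.153 CPM, the lowest of this group. *KCS18* (AT4G34520), also known as FAE1, elongates fatty acids for seed oil. Its 30 and 37 counts in Col-0 stood against none in *mettl4-1*, at least 9.37-fold lower. *PER1* (AT1G48130), a peroxiredoxin of seeds and dormant embryos, kept more, with 1.36 and 1.48 CPM against 0.277 and 0.338 CPM, or 21.6%.

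Both vacuolar aquaporins of the seed type were in the set. *BETA-TIP* (AT1G17810) had 24 and 26 counts in Col-0 against 6 and 5 in *mettl4-1*, and *TIP3;1* (AT1G73190) had 27 and 34 against 11 and 11. These proteins sit in the membrane of protein storage vacuoles. *TIP3;1* held 42.9% of its Col-0 level, the most of this group, and 24.6% of its exon sequence lies opposite exons of AT1G73200, which had 1705 and 2015 counts in Col-0 against 1601 and 1651 in *mettl4-1*. The carboxypeptidase-like gene *scpl17* (AT3G12203) had 25 and 33 counts against 3 and 7, or 20.6%.

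The genes left out by name had passed the same gap, so their low levels were fixed by the rule and lend no support to those of this group. The 17 storage, oil body and LEA genes had a median of 3.54% of the Col-0 level left, with a range from 0 to 58.7% and 4 genes at 0. Over 19 seed and embryo markers, of which 4 are members and 11 were left out by name, the summed level was 96.8 and 95.8 CPM in Col-0 and 6.06 and 6.10 CPM in *mettl4-1*. These sums were therefore largely decided by the rule as well. Without those 15 genes the sum was 0.755 and 0.931 against 0.416 and 0.298 CPM. *CRU2*, *SESA1*, *SESA3* and *SESA5* were at 0 in the mutant, and *LEC1* was at 0 in all 4 libraries. Whether ungerminated seeds or remains of seeds took part in the difference was not tested.

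**Figure D2:**
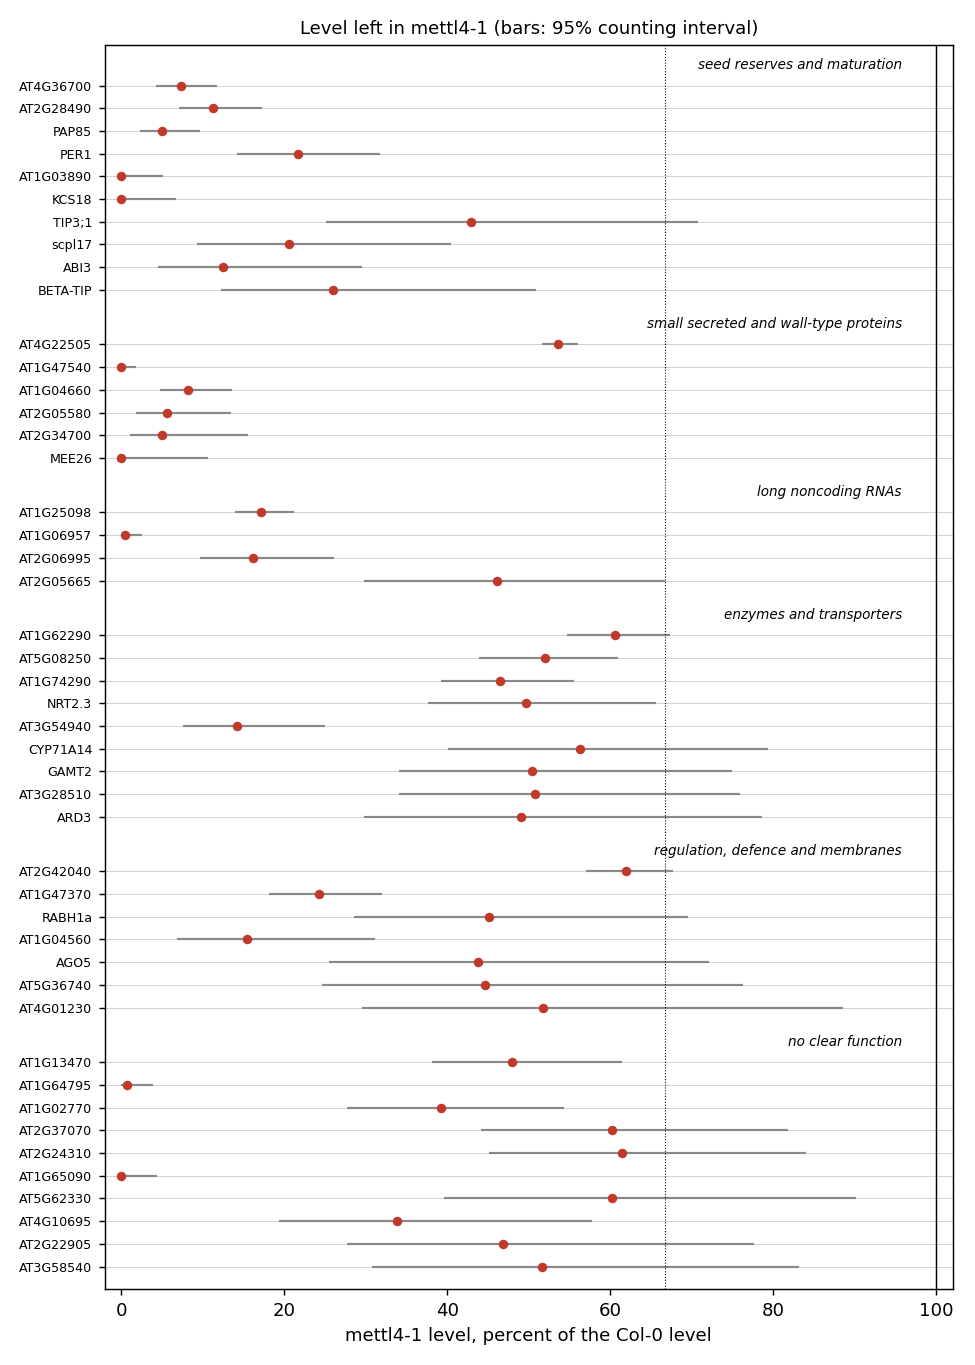
Level left in *mettl4-1* as a percent of the Col-0 level for each of the 46 genes, grouped by role. Points are ratios of mean CPM, bars are 95% counting intervals, the dotted line marks the limit that the 1.5-fold gap sets, and the solid line marks the Col-0 level; the median was 11.9% for the seed group and 50.4% for the enzymes and transporters.

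A second strongly reduced group comprised 6 genes for small secreted or cell wall proteins, with a median of 5.31% left and a range from 0 to 53.6%. AT1G47540, annotated as a scorpion toxin-like knottin, a fold shared by plant defensins and protease inhibitors, had 2.19 and 2.03 CPM (119 and 133 counts) in Col-0 and no count in *mettl4-1*. It was at least 35.4-fold lower, the widest bound among the 5 genes at 0. *MEE26* (AT2G34870), annotated as a hydroxyproline-rich glycoprotein, had 23 and 20 counts against none, at least 6.11-fold lower. *MEE26* was near the entry limit of 20 counts in Col-0, so its bound is loose.

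Glycine-rich proteins of the wall type were represented by AT1G04660 and AT2G05580. AT1G04660 had 132 and 110 counts in Col-0 against 11 and 6 in *mettl4-1*, or 8.20% of the Col-0 level. AT2G05580 had 50 and 56 counts against 4 and 1, or 5.58%. AT2G34700, an Ole e 1-type extensin-like protein, had 36 and 34 counts against 1 and 2, a ratio of 19.8 with a 95% counting interval from 6.45 to 97.5. Counting error is wide at such counts.

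AT4G22505 was the most abundant of the 46 genes, with 64.9 and 59.8 CPM in Col-0 and 29.6 and 37.2 CPM in *mettl4-1*. The means were 62.4 ± 3.59 (SD, n = 2) and 33.4 ± 5.33 CPM (SD, n = 2), and 53.6% of the level was left. It encodes a protein of the lipid-transfer and 2S albumin superfamily, a family of small cysteine-rich secreted proteins found in the epidermis and wall as well as in seeds. It is annotated at 11851155 to 11853018 on chromosome 4 of TAIR10.1, with a single exon. An uncharacterized gene, AT4G22495, lies opposite it over 92.3% of its exon sequence and had 2, 7, 4 and 1 counts in the 4 libraries.

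AT4G22505 lies in a run of genes of the same superfamily, and these neighbours were not chosen by the gap. AT4G22485 had 5842 and 6844 counts in Col-0 against 3569 and 3567 in *mettl4-1*, with a log2 fold change of -0.58 (SE 0.03, Benjamini-Hochberg adjusted p = 1.5e-06 by the quasi-likelihood test of edgeR). AT4G22513 changed by -0.50 (SE 0.09, adjusted p = 0.016), AT4G22517 by -0.40 (SE 0.06, adjusted p = 0.0067) and AT4G22490 by -0.33 (SE 0.04, adjusted p = 0.0028) in the same edgeR test. These 4 genes were thus also lower in the mutant. That each fell by less than AT4G22505 was set by the rule, since only AT4G22505 had the 1.5-fold gap. DESeq2 gave AT4G22513 and AT4G22517 no adjusted p. AT4G22520 had 190 and 214 counts against 126 and 104 (log2 fold change -0.56, adjusted p = 0.067 by edgeR), and AT4G22460, at the other end, had 248 and 266 against 202 and 271 (0.13, adjusted p = 0.72). AT4G22470, between AT4G22460 and AT4G22485, is described as a lipid transfer protein in other words than the rest. It had 16 and 27 counts against 8 and 14 (log2 fold change -0.70, adjusted p = 0.45 by edgeR). The methyltransferase-like gene AT4G22530, which spans AT4G22520 on the opposite strand, did not pass the test, with a log2 fold change of -0.04 (adjusted p = 0.88 by edgeR). Nor did the uncharacterized gene AT4G22475, which spans AT4G22485 on the opposite strand. It had 37 and 40 counts against 21 and 41 (log2 fold change -0.06, adjusted p = 0.95 by edgeR). Just past the run, *ORP2A* (AT4G22540), an oxysterol-binding protein relative outside the superfamily, was lower (2643 and 3230 counts against 2238 and 2131, log2 fold change -0.17, adjusted p = 0.035 by edgeR, 0.085 by DESeq2).

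**Figure D3:**
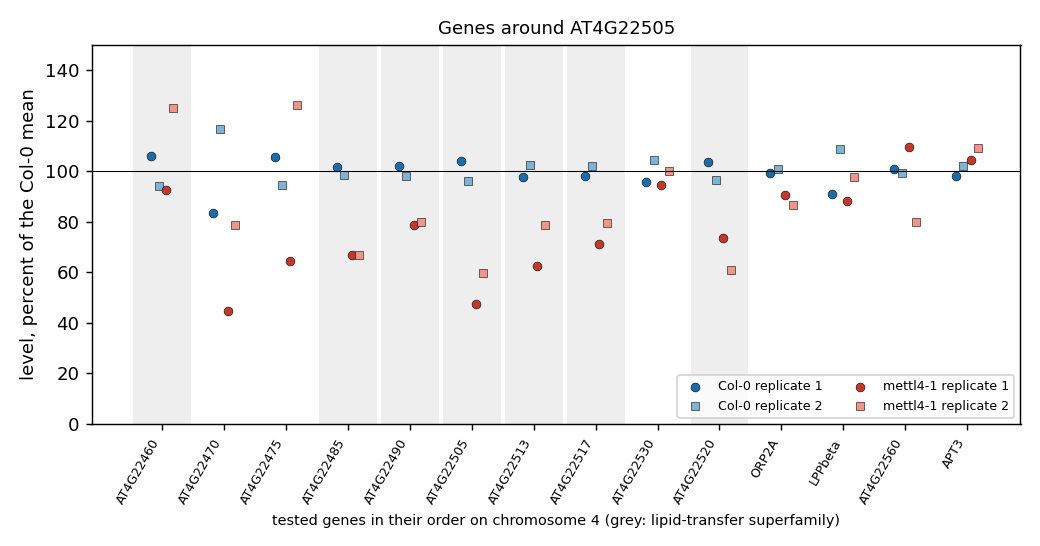
Level of the tested genes around AT4G22505 in each library, as a percent of the Col-0 mean of that gene, in their order on chromosome 4. Blue symbols are Col-0, red symbols *mettl4-1*, circles and squares replicates 1 and 2. Grey bands mark genes described by the name of the lipid-transfer superfamily, so AT4G22470, described as a lipid transfer protein in other words, is unshaded. The *mettl4-1* symbols of AT4G22485 stand near 66.8% and those of AT4G22490 near 79.3%. Those of AT4G22530, which spans AT4G22520 on the opposite strand, have a mean of 97.2%.

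The superfamily, taken as the genes described by its name, was also examined outside the run. Of 49 tested members there, 5 were lower and 0 higher at an adjusted p under 0.05 by edgeR (16 and 1 at an unadjusted p under 0.05, 5 and 0 by DESeq2 and by limma-voom), and their median log2 fold change was -0.09. In the run itself, 4 of the 6 genes of that description beside AT4G22505 were lower and 0 higher, and AT4G22470 is not among these 6. Over all genes tested, 1.87% were lower and 0.960% higher at this adjusted p, and the median log2 fold change was 0.0015. Outside the run, AT3G22142 changed by -0.40 (1773 and 2035 counts against 1182 and 1239, adjusted p = 0.0011 by edgeR), AT4G15160 by -0.37, AT2G45180 by -0.36, AT2G10940 by -0.28 and *LTPG2* by -0.19. None of these 5, nor of the 4 in the run, reached a change of 1.5-fold.

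Long noncoding RNAs made up 4 of the 46 genes, or 8.70%, against 1.28% of the nuclear genes with the counts to enter. A median of 16.6% of the Col-0 level was left. AT1G06957, at 13477922 to 13478204 on chromosome 1 of TAIR10.1 with 2 exons and 213 bases in all, had 118 and 144 counts in Col-0 against 1 and 0 in *mettl4-1*. The ratio was 221 with a 95% counting interval from 39.2 to 8741, the highest ratio among the genes with any count in the mutant. Its first 135 bases resemble exons of the protein-coding gene AT5G38840 with 95.6% identity. They are shown in capitals in its exon sequence, because reads from such a stretch could be assigned to either gene.

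AT1G06957 exons, plus strand: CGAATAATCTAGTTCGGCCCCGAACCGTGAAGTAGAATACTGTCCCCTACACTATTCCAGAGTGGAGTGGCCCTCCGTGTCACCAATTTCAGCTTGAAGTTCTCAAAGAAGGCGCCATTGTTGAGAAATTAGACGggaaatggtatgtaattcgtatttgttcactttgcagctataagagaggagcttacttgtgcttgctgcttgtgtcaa

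AT5G38840 had 1872 and 2210 counts in Col-0 against 1823 and 1754 in *mettl4-1*, with a log2 fold change of 0.06 (SE 0.04, adjusted p = 0.55 by edgeR). AT1G25098 was the most abundant of these RNAs, with 6.64 and 5.60 CPM in Col-0 and 1.68 and 0.417 CPM in *mettl4-1*, or 17.1%. Its *mettl4-1* libraries, at 85 and 21 counts, differed from each other beyond counting error. It has a near-identical copy, AT1G25175, with 99.8% identity over its exons and only 0, 0, 1 and 0 counts. AT2G06995 had 75 and 71 counts against 6 and 14, or 16.1%, and AT2G05665 had 32 and 63 against 19 and 17, or 46.0%. No function is annotated for any of the 4 RNAs. Of the 46 genes, 21 had some exon match to another listed gene on either strand. For 9 of them a match had at least 90% identity over at least 50% of their exons. These counts include genes that overlap a member on the opposite strand, such as *ILA* opposite AT1G64795. The share over all expressed genes was not computed.

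The 9 enzymes and transporters kept more of their level, with a median of 50.4% and a range from 14.2 to 60.5%. The exception at the low end was AT3G54940, a papain-type cysteine protease, a class that degrades storage proteins among other roles. Its level was 58 and 58 counts in Col-0 against 3 and 11 in *mettl4-1*. Its promoter, shown above, carries 3 RY matches and a CACGTG. AT1G62290, a saposin-like aspartyl protease, stood at the other end, with 9.30 and 8.82 CPM against 5.58 and 5.38 CPM.

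Among the metabolic enzymes, the cytochrome P450 AT5G08250 had 210 and 281 counts in Col-0 against 110 and 104 in *mettl4-1*, or 52.0% of its level, and *CYP71A14* (AT5G24960) had 55 and 56 against 26 and 27, or 56.3%. *GAMT2* (AT5G56300), which methylates gibberellins, a step that inactivates these hormones, mostly in developing seeds, had 46 and 45 counts against 19 and 20, or 50.4%. *ARD3* (AT2G26400), an acireductone dioxygenase of methionine salvage, had 29 and 34 against 9 and 17 and lay just inside the 1.5-fold limit. In *ARD3* the mutant libraries lay further apart than in the other 3 genes.

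*NRT2.3* (AT5G60780), a member of the high-affinity nitrate transporter family, had 1.60 and 1.43 CPM in Col-0 and 0.792 and 0.715 CPM in *mettl4-1*, or 49.6%. The other 3 tested genes of its family had log2 fold changes between -0.13 and 0.32, and none passed the adjusted threshold by edgeR (1 was lower at an unadjusted p under 0.05; none by DESeq2 or limma-voom). AT1G74290, an alpha/beta-hydrolase, had 231 and 242 counts against 93 and 93, or 46.4%. It is 92.7% identical over its exons to AT1G74280, which had 334 and 416 counts against 267 and 343, so the sharing of reads between the pair is uncertain. AT3G28510, a P-loop nucleoside triphosphatase, had 45 and 43 against 20 and 18.

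Of the 7 genes with roles in regulation, defence and membranes, a median of 44.6% was left, with a range from 15.5 to 62.0%. AT2G42040, which carries a WRC domain known from growth-regulating factors, was the second most abundant gene of the set, with 13.2 and 12.6 CPM in Col-0 and 7.78 and 8.24 CPM in *mettl4-1*. The means were 12.9 ± 0.434 (SD, n = 2) and 8.01 ± 0.330 CPM (SD, n = 2). AT1G47370, a Toll-interleukin receptor domain protein of the kind found in plant immune receptors, had 2.43 and 2.55 CPM against 0.811 and 0.397 CPM, or 24.3%. AT1G04560, an AWPM-19-like membrane protein, was the most reduced of this group, with 32 and 37 counts against 4 and 5.

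*AGO5* (AT2G27880), an Argonaute protein that binds small RNAs, had 26 and 34 counts in Col-0 against 10 and 12 in *mettl4-1*, or 43.7% of its level. Among the 8 other tested Argonaute genes, *AGO7* was higher (784 and 980 counts against 880 and 861, log2 fold change 0.24, adjusted p = 0.035 by edgeR) and none was lower. The *AGO7* call was lost with a replicate block, and DESeq2 gave it no adjusted p. *RABH1a* (AT5G64990), a small GTPase of Golgi traffic, had 36 and 43 counts against 20 and 10, and the reticulon AT4G01230, of a family that shapes the endoplasmic reticulum, had 23 and 25 against 12 and 9. AT5G36740, annotated as an acyltransferase with a PHD-type finger, had 21 and 30 against 12 and 7. Its copy AT5G36670 is 99.98% identical over 98.2% of the exons and had 0, 3, 6 and 5 counts, so the reads of the pair could be split either way and the difference of AT5G36740 is uncertain.

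The other 10 genes had no clear function in the annotation used here and kept a median of 47.4%, with a range from 0 to 61.5%. Roles known from elsewhere, seed roles included, would not show in this sorting. AT1G65090, described as nucleolin in the annotation, had 49 and 53 counts in Col-0 and none in *mettl4-1*, at least 14.4-fold lower. AT1G64795 had 80 and 90 counts against 0 and 1, a ratio with a 95% counting interval from 25.3 to 5683. It is a short gene that lies over 70.6% of its exons opposite *ILA* (AT1G64790), which had 11261 and 13766 counts in Col-0 against 11181 and 10515 in *mettl4-1*. AT1G13470, of the DUF1262 family, had 130 and 117 counts against 48 and 53, or 47.9% of its Col-0 level.

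AT1G02770 had 64 and 85 counts against 17 and 32, and AT4G10695 had 34 and 32 against 10 and 9, leaving 39.3 and 33.8% of the Col-0 level. The 5 genes AT2G22905, AT3G58540, AT5G62330, AT2G37070 and AT2G24310 held between 46.9 and 61.5%, on 24 to 70 counts per Col-0 library. These lie near the limit, where the entry rule sets how small a difference can be. The values just inside it were those of AT2G24310, with a gap of 1.51-fold (60 and 65 counts against 32 and 33), AT2G42040 with 1.53 and *ARD3* with 1.54. Just outside lay *FRK1* (AT2G19190), a receptor kinase induced by flagellin, with 1.49 (64 and 58 counts against 30 and 26), AT4G22485 with 1.47 and the F-box gene *EDL3* with 1.47 (42 and 42 counts against 22 and 20).

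The rule compares the lower Col-0 level with the higher *mettl4-1* level, so it favours genes whose libraries agree within a genotype. The members also have fewer counts (median 108.5 against 1929 summed over the Col-0 libraries), so the test below can find less in them. The shares that follow are thus a description and not a check of agreement. Between the 2 Col-0 libraries, none of the 46 genes differed beyond counting error (exact binomial test with Benjamini-Hochberg adjustment), while 0.745% of 21599 nuclear genes did. Between the 2 *mettl4-1* libraries, 2 of the 27 genes with enough counts differed, AT1G25098 and AT4G22505, against 6.92% of 21345 nuclear genes. Under the thresholds of the study's methods, an unadjusted p under 0.05 and a change of at least 1.5-fold, edgeR called all 46 lower, where 0.683% of the 21673 tested genes were called lower and 0.937% higher. With the adjusted p it called 31, where 0.323% were called lower and 0.314% higher, and nothing is read from these counts because the same contrast chose the genes. Over all genes, both *mettl4-1* libraries lay below both Col-0 libraries in 23.8% of the nuclear genes with 20 counts.

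Promoter sequence was not used in choosing the genes. The RY motif CATGCA was found on either strand within 250 bases before the start in 7 of 10 seed genes, or 70%, in 4 of the other 36 (11.1%: AT1G47540, AT3G54940, *GAMT2* and *MEE26*), in 82.4% of the 17 storage, oil body and LEA genes left out by name, and in 7.70% of the 20543 expressed nuclear genes with a full window. ACGTG was found in 50% of the seed genes, 36.1% of the other genes, 76.5% of the genes left out and 23.8% of the expressed genes. For CACGTG, which contains ACGTG on both strands, the shares were 40, 5.56, 47.1 and 7.27%. In the promoters printed above, AT4G36700 holds an RY match and a pair of CACGTG elements, AT2G28490 holds 3 RY matches and 1 CACGTG, and *PAP85* and *KCS18* hold RY matches alone.

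The other motifs searched were the TATA box TATAAA (30% of the seed genes, 47.2% of the other genes and 46% of the expressed genes), the W-box TTGACC (0, 5.56 and 12.2%), the GCC-box GCCGCC (0, 2.78 and 1.99%), the heat shock element GAANNTTC (10, 2.78 and 9.23%) and the evening element AAAATATCT (0, 2.78 and 2.48%). A match is a string of letters and not a proven binding site. With 10 genes in the seed group, 1 promoter moves a share by 10 percentage points. The seed group was also formed after the values had been seen, and no test was made of these shares.

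**Figure D4:**
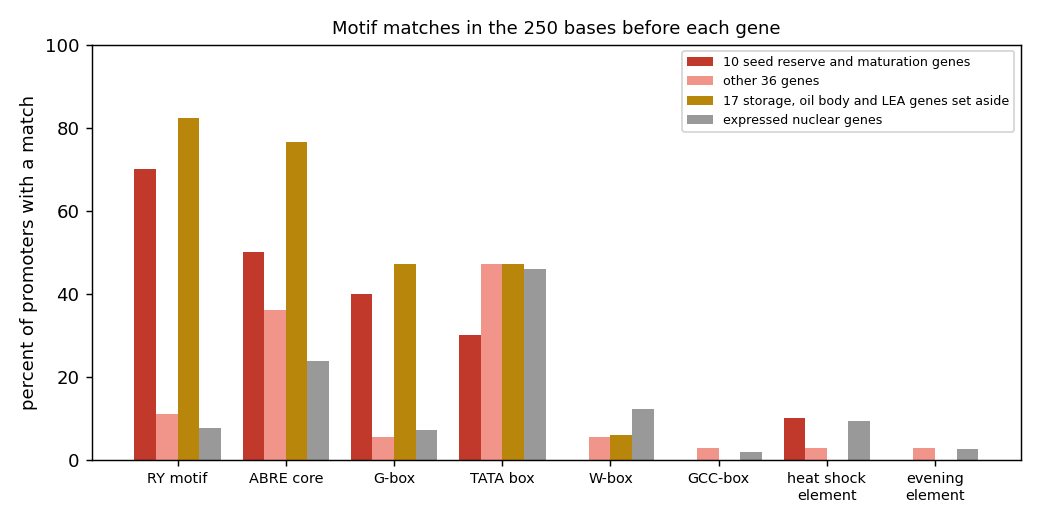
Share of promoters with at least 1 match to each motif within 250 bases before the start, on either strand. Bars are the 10 seed reserve and maturation genes, the other 36 genes, the 17 storage, oil body and LEA genes left out by name and 20543 expressed nuclear genes; the RY motif stands at 70% and 82.4% in the seed sets against 11.1% and 7.70% in the others.

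The 46 genes lay on all 5 chromosomes, with 16, 12, 6, 5 and 7 genes on chromosomes 1 to 5, where 26.4, 15.2, 19.7, 15.3 and 23.4% of the nuclear genes with the counts lie. No pair of them was within 20000 bases. Members and genes left out by name were not counted as neighbours. Of the 91 other tested genes next to a member, 2 were lower and 1 higher at an adjusted p under 0.05 by edgeR. The lower ones were AT4G22490 and AT4G22513 beside AT4G22505, already described. The higher one was AT3G22660, an rRNA processing protein-like gene beside *PAP85*, with 2349 and 2729 counts against 2348 and 2379 (log2 fold change 0.15, SE 0.03, adjusted p = 0.049 by edgeR). The median log2 fold change of the neighbours was -0.0034, and none of the 91 combined an adjusted p under 0.05 with a change of 1.5-fold. The cruciferin *CRU2* (AT1G03880), left out by name, lies 1052 bases from the member AT1G03890 on the same strand. It had 402 and 504 counts in Col-0 against 0 and 0 in *mettl4-1*, but it passed the same gap, so its low level was fixed by the rule. In structure the members had a median of 3 exons and 1318 bases of exon, against 4 and 1771 for the expressed nuclear genes, and 42.7 against 41.1% GC.

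Relatives of the members were looked at next, family by family, in the same edgeR fit. In the cupins, 1 of 19 other tested genes was lower and 0 higher, AT2G18540 with 18 and 25 counts in Col-0 against 3 and 3 in *mettl4-1* (log2 fold change -2.54, SE 0.49, adjusted p = 0.020; DESeq2 gave it no adjusted p), and it missed the entry rule by its count. Of 6 other tested tonoplast aquaporins, 4 were lower by small amounts and none was higher, *TIP2* by -0.24, *DELTA-TIP* by -0.20, *GAMMA-TIP* by -0.17 and *TIP2;2* by -0.16 on the log2 scale. Of 17 other ketoacyl-CoA synthases, *KCS19* was lower (-0.18, adjusted p = 0.038 by edgeR but 0.097 by DESeq2) and none was higher. The 4 aquaporins are those of vegetative vacuoles and are abundant, with 8587 to 43417 counts per library.

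Elsewhere few relatives passed the adjusted threshold. Of 36 other carboxypeptidase-like genes, *SCPL13* was lower (-0.25) and *scpl10* higher (0.28), and DESeq2 gave neither an adjusted p. Of 32 other glycine-rich genes, AT2G05510 (0.38) and AT5G35660 (1.71, on 8 and 10 counts against 19 and 31) were higher, the latter with an adjusted p of 0.049 by edgeR and 0.053 by limma-voom. AT5G15780 (-0.19) was lower among 20 Ole e 1-type genes, *RD19* (-0.11) among 5 others annotated as papain family, and *CYP71A25* (0.35) higher among 12 CYP71A genes. DESeq2 gave AT5G35660 and *CYP71A25* no adjusted p. No other AWPM-19-like gene (3 tested), acireductone dioxygenase (3) or RABH1 gene (3) passed at an adjusted or unadjusted p under 0.05, or by DESeq2 or limma-voom, and among 7 DUF1262 genes none passed the adjusted threshold, with 2 higher at an unadjusted p under 0.05 and none by DESeq2 or limma-voom.

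Related processes were examined with 10 gene lists, to be read against the 1.87% lower and 0.960% higher over all genes tested. The list of seed and desiccation genes lay mostly outside the storage, oil body and LEA families, though it holds *PAP85* and the LEA genes *M10* and *M17*. It matched 31 genes and had 21 tested genes, of which 6 are members (*PER1*, *PAP85*, *TIP3;1*, *BETA-TIP*, *KCS18* and *ABI3*). Among the other 15 tested genes, edgeR called 0 lower and 0 higher at an adjusted p under 0.05, with 0 and 2 at an unadjusted p under 0.05 and none by DESeq2 or limma-voom, and their median log2 fold change was 0.05. The rest, among them the seed regulators *LEC2*, *ABI4* and *FUS3*, had too few counts to be tested, so the 15 do not stand for them. *LEC2* had 5 and 7 counts against 2 and 2, and *FUS3* had 3 and 9 against 5 and 3. The nitrate list, of interest beside *NRT2.3*, had 4 of 36 genes lower and none higher, led by *BT2* (-0.26, adjusted p = 0.0011), *ASN2* (-0.19), *FNR2* (-0.11) and *LBD37* (-0.12, lost with DESeq2 and limma-voom at 0.12 and 0.051). The other ferredoxin-NADP oxidoreductases on it, *FNR1* (-0.01) and the root forms *RFNR1* (0.09) and *RFNR2* (0.03), were not called. The silencing list, which holds *AGO5*, had 1 of 40 other genes higher, *AGO7*, and none lower.

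Among the remaining lists, heat shock genes were higher in 5 of 28 cases and lower in none, led by *HSP23.6-MITO* (989 and 1223 counts against 1388 and 1419, log2 fold change 0.60, adjusted p = 5.5e-05 by edgeR), *HSF4* (0.19), *HSP70* (0.17) and *HSP90.1* (0.20). Abscisic acid and drought genes were lower in 4 of 46 cases and higher in none, *RD22* (-0.20), *KIN2* (-0.25), *LTI78* (-0.20) and *PYL4* (-0.14). Iron deficiency genes were lower in 4 of 34, *IRT1* (-0.25), *ORG1* (-0.16), *FRO2* (-0.27) and *OPT3* (-0.13), and higher in none. Jasmonate genes were higher in 3 of 40, *VSP2* (0.39), *VSP1* (0.30) and *PDF1.2* (0.52), and phosphate starvation genes in 3 of 30, *SPX1* (0.34), *PAP17* (0.28) and *SRG3* (0.28), with none lower in either. Among the 30, the symbol *PHR1* was matched to AT1G12370, a photolyase and not the phosphate gene of that symbol. Of 45 auxin genes *IAA2* (0.16) was higher and *IAA7* (-0.16) lower, and *IAA2* was lost with DESeq2 (adjusted p = 0.13) and limma-voom (0.052). Calls were also lost with DESeq2 for *HSP101*, *LTI78* and *PYL4*, the last with limma-voom as well. For *FRO2* and *PDF1.2* DESeq2 gave no adjusted p.

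The glucosinolate list had 2 of 44 genes lower and 2 higher. *TGG1* (-0.09), *ESM1* (0.13) and *MAM1* (0.14) moved little. *AOP3* (AT4G03050), an enzyme of glucosinolate side chains, had 12 and 17 counts in Col-0 against 1 and 1 in *mettl4-1* and was too low in Col-0 for the entry rule. Its log2 fold change was -3.46 (SE 0.69, adjusted p = 0.024 by edgeR), and DESeq2 gave it no adjusted p. Outside the members, *AOP3* and *HSP23.6-MITO* were the only called genes of the 10 lists with a change of at least 1.5-fold. Most of these calls were small and rested on both Col-0 libraries. Of 54 called genes among the lists, families, neighbours and the run, 36 were lost with Col-0 replicate 1 or Col-0 replicate 2 left out, and 18 were lost in none of the alternatives that gave them an adjusted p.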

How the data were processed

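RNA was sequenced from Col-0 and *mettl4-1* seedlings, 2 libraries each. The authors trimmed reads with Cutadapt 3.5, aligned them with HISAT2 2.2.1, filtered them with SAMtools 1.13, counted reads per gene with featureCounts 2.0.1 and deposited raw counts without normalization. The paper describes the libraries as strand-specific and says that reads of high mapping quality were kept. How the counting itself treated strand, multi-mapping reads and overlaps is not given in the sources used here, and it affects overlapping and duplicated genes. Genotypes came from the sample labels. The table of *mettl4-1* replicate 2 is named for another allele and replicate number and repeats the column name of replicate 1, and the label was followed. Total counts lay between 50862075 and 66003824 per library.

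CPM were computed over nuclear counts. Genes outside the rule were tested with edgeR 4.0.16 in R 4.3.3 (TMM, filterByExpr with a minimum count of 10, quasi-likelihood test, genotype as the only term), and p-values were Benjamini-Hochberg adjusted over 21673 genes. A gene counts as called, lower or higher, at an adjusted p under 0.05 unless a fold is named. With 2 libraries against 2, an exact permutation test cannot go below p = 0.333. DESeq2 1.42.0 and limma-voom (limma 3.58.1) were alternatives, beside other size factors, count limits, a 2-fold gap, no filter, a replicate block, removal of organelle genes and the omission of each library. Counting intervals are exact binomial at 95%. The fit was tested on simulated data. Names, positions and promoters came from RefSeq TAIR10.1, which held all 32548 nuclear genes, and shared exon sequence from BLAST 2.17.0.

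The members, the 10 lists and the motifs were chosen with earlier results of these data known, and role groups and families after the values had been seen. Named by rule were *METTL4*, the 10 most abundant members, the 10 with the widest gap, 3 on each side of the limit, members of shared classes or lists, up to 4 called genes per list and called neighbours. The members outside that rule, the families and the run on chromosome 4 were named after their values were seen.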

Additional observations from a re-analysis of the deposited data

How the results depend on the processing

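The number of genes taken depended on the limits. It was 93 with a minimum of 10 counts, 24 with 50 counts and 25 with a 2-fold gap, against 46. Leaving out 1 library gave 105 to 123, since a gap over fewer libraries is easier to pass; the number was 123 without Col-0 replicate 1, 105 without Col-0 replicate 2, 105 without *mettl4-1* replicate 1 and 121 without *mettl4-1* replicate 2. Other size factors or inclusion of organelle counts gave 46 to 48.

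Over all genes, 70 were called lower and 68 higher at an adjusted p under 0.05 and 1.5-fold by edgeR. DESeq2's Wald test called 5 and 14, but gave no adjusted p to 65 of the 70 and 40 of the 68, and at the study's thresholds 100 and 123, against 148 and 203 by edgeR. Without a filter 120 were called higher, with limma-voom 27, with organelle genes removed 42. The omission of 1 library gave 62 to 86 lower and 74 to 159 higher, the last without *mettl4-1* replicate 2. Replicate numbers did not pair the samples (the deviations of same-numbered samples correlated at -0.028 over 21531 genes), and a replicate block called 70 lower and 106 higher.

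Of the genes of the 10 lists, 15 were called lower and 15 higher, and 4 to 26 and 6 to 30 with 1 library left out: fewest lower without Col-0 replicate 2, 6 without Col-0 replicate 1, 25 without *mettl4-1* replicate 2 and 26 without *mettl4-1* replicate 1. Higher ones numbered 6 without Col-0 replicate 1, 8 without Col-0 replicate 2 and 30 without *mettl4-1* replicate 2. The 2 lower neighbours became 1 with DESeq2, which gave AT4G22513 no adjusted p, and 2 to 5 with 1 library left out. The higher neighbour was lost with DESeq2-style size factors, DESeq2 and limma-voom (0 each), and 2 were called without a filter or without organelle genes, and 0 to 4 with 1 library left out. Genes with few counts and those with copies or antisense partners are the least certain.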
